A study of Mus musculus with 8 samples.

Results

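IGHM and IGHD are the constant-region genes of unswitched antibody heavy chains, and their RNA was counted in pro-B cells that carry a Setd2 knockout or are controls. They were taken as the rows with exactly these names in the heavy-chain segment counts, which makes 2 of the 184 heavy-chain segments with a read in any sample, and both had reads in all 8 samples. The knockout group held 4 samples labelled Setd2 knockout and the control group 4 samples labelled control, all untreated and from mice 8 weeks old. Pro-B cells were sorted from bone marrow by B220 and Cd43 on their surface and the lack of IgM and CD25, and poly-A RNA was sequenced with 75-base single-end reads in 1 sequencing batch. The labels name no Cre driver, no deleted exon and no animal behind a replicate number, so each p-value measures only how these samples spread, part of which may be technical.

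Setd2 encodes a methyltransferase that trimethylates lysine 36 of histone H3. The mu constant region is the first downstream of the JH segments, and it is transcribed both before rearrangement, as germline transcripts without a V segment, and after it, as the messenger RNA of the mu heavy chain. The delta constant region follows on the same precursor RNA and is joined to the same V, D and J segments by alternative splicing, which mature naive B cells use most. The switched constant regions IGHG, IGHE and IGHA come into use after class switching, in activated B cells and plasma cells.

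Both genes lie on the minus strand of chromosome 12. The counted intervals were chr12:113418826-113422730 for IGHM and chr12:113407535-113416324 for IGHD in mm10. They are 2501 bases apart and equal the constant-region entries of RefSeq for GRCm38.p6, the same assembly. GENCODE M21 annotates 2 transcripts of each gene, a secreted and a membrane form. The forms were not counted apart, and the last exon of each membrane form lies almost wholly outside the counted interval. The IGHM interval spans 3905 bases with 1618 bases of annotated exon, and the IGHD interval 8790 bases with 969 bases of exon. The first 60 bases of each first constant exon follow, from the GENCODE M21 transcripts, since these are the bases that a JH segment is spliced to. The IGHM stretch is chr12:113422671-113422730 and the IGHD stretch chr12:113416265-113416324. Capitals mark the first 14 bases, which differ between the genes and tell the junctions apart.
IGHM: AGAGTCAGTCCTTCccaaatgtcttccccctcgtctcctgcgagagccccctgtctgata
IGHD: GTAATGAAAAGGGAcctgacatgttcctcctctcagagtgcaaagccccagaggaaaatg

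Heavy-chain locus reads, the sum of all segment counts, ran from 12102 to 100600 in knockouts and from 64488 to 89908 in controls. Whole-library depth is unknown. Knockout 3 was the shallowest, with 1637 VH reads against 22369 to 56542 in the other knockouts and 35505 to 53071 in controls. The files hold only immunoglobulin segments, so neither Setd2 RNA nor pro-B markers outside these loci could be examined. Markers of later B-lineage cells were present in every sample. All 6 switched constant regions had reads in all 8 samples, with a summed level of 5.64% to 18.9% of locus reads in knockouts and 21.05% to 29.1% in controls. IGKC, the kappa light-chain constant region, had 2810 to 62691 reads in knockouts and 40603 to 56600 in controls. The lambda constant regions (IGLC) together had 1545, 1199, 867 and 3511 reads in knockouts 1 to 4. In controls 1 to 4 they had 1545, 1865, 1730 and 1276. The mean of the lambda reads was 1780.5 in knockouts and 1604 in controls, and that of IGKC was 30618 and 50248. These are raw counts. All light-chain segments together had a mean of 66218 reads in knockouts and 104162 in controls. They ranged from 5956 to 144978 in knockouts and from 84230 to 118807 in controls. The IGKC mean was lower in knockouts, as this total was, while the lambda mean was not. Shares of light-chain reads were not tested.

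IGHM was the most read heavy-chain segment in all 8 samples. It had 19023, 10746, 9449 and 23824 reads in knockouts 1 to 4, against 23293, 14736, 13612 and 14059 reads in controls 1 to 4. As a share of heavy-chain locus reads this was 34.8%, 25.98%, 78.1% and 23.7% in knockouts and 25.9%, 16.5%, 21.1% and 18.5% in controls, with Wilson intervals of at most 0.737 percentage points to either side. Knockout 3 was highest by far, 3 of the 4 knockouts lay above every control, and knockout 4 lay below control 1. The intervals of knockout 2 and control 1 overlapped, so these neighbours did not differ beyond counting error. The mean share was 40.6% ± 25.4 in knockouts and 20.5% ± 4.08 in controls (SD, n = 4 each), a difference of 20.2 percentage points that did not pass (exact permutation p = 0.0571). Without knockout 4 it was 25.8 and passed (exact permutation p = 0.0286). Leaving knockout 3 out brought the knockout mean to 28.2% and the difference to 7.67 percentage points. Fewer cells of a type and less RNA per cell cannot be told apart in such bulk counts.

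IGHD was read far less. It had 214, 135, 63 and 201 reads in knockouts 1 to 4, against 324, 348, 275 and 255 reads in controls 1 to 4. Its share of locus reads was 0.392%, 0.326%, 0.521% and 0.1998% in knockouts and 0.360%, 0.389%, 0.426% and 0.335% in controls. Knockout 3 was highest and knockout 4 lowest of all samples, and the other samples lay between 0.326% and 0.426%. The interval of knockout 4, 0.174% to 0.229%, lay below those of all controls, and that of knockout 3, 0.407% to 0.665%, overlapped those of controls 2 and 3. The mean was 0.360% ± 0.134 in knockouts and 0.378% ± 0.0393 in controls (SD, n = 4 each), a difference of -0.0181 percentage points that did not pass (exact permutation p = 0.771). It was 0.0352 without knockout 4, where the direction turned. Without knockout 3 it was -0.0717.

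Per 1000 bases of annotated exon, IGHM had 5840 to 14724 reads in knockouts and 8413 to 14396 reads in controls. IGHD had 65.0 to 221 reads per 1000 bases of exon in knockouts and 263 to 359 in controls. On this scale IGHM stood 47.7 to 89.8 times above IGHD in knockouts and 25.4 to 43.1 times above it in controls. With the whole interval as length the ratio was 179 to 338 in knockouts and 95.3 to 162 in controls. Whether reads in introns were counted is not stated, so the size of the gap between the genes depends on the length chosen, while the ratio between samples does not.

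**Figure D1:**
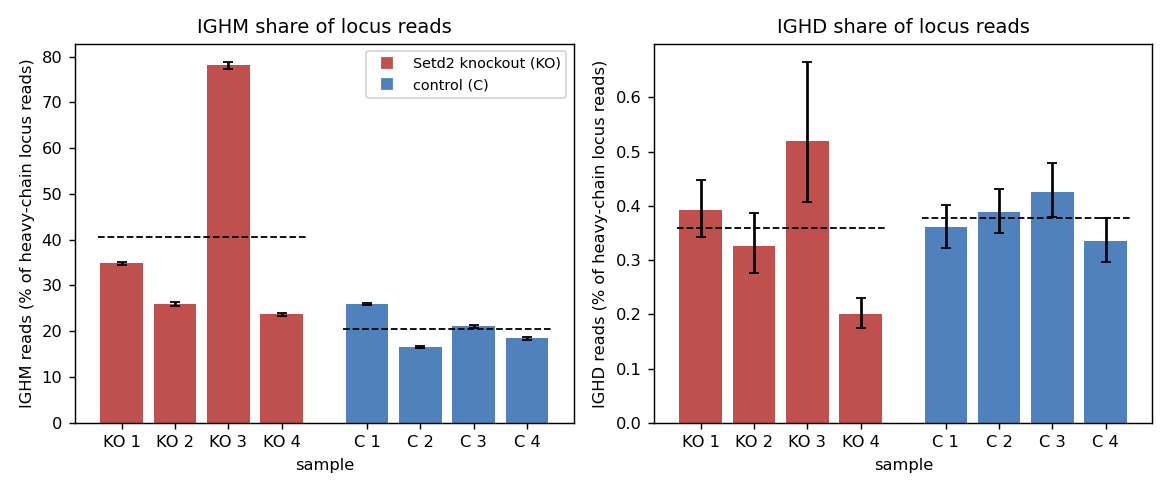
IGHM (left) and IGHD (right) reads as a percentage of heavy-chain locus reads, 1 bar per sample, with 95% Wilson intervals as error bars and group means as dashed lines. Knockout 3 stands at 78.1% for IGHM, and the IGHD shares of the groups overlap.

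The classes of locus reads were set side by side because a share of a fixed total moves with every other class. VH segments took 46.7%, 54.1%, 13.5% and 56.2% of locus reads in knockouts 1 to 4 and 43.4% to 59.4% in controls. JH segments took 1.61%, 1.28%, 2.21% and 1.02% in knockouts and 0.735% to 1.18% in controls, a mean difference of 0.602 percentage points that did not pass (exact permutation p = 0.0571). It was 0.375 without knockout 3, and without knockout 4 it was 0.773 and passed (exact permutation p = 0.0286). The DH segments, which are short, had 3 to 18 reads per knockout and 7 to 15 per control. In knockout 3 the IGHM and JH shares were the highest of all samples and the VH and switched shares the lowest.

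**Figure D2:**
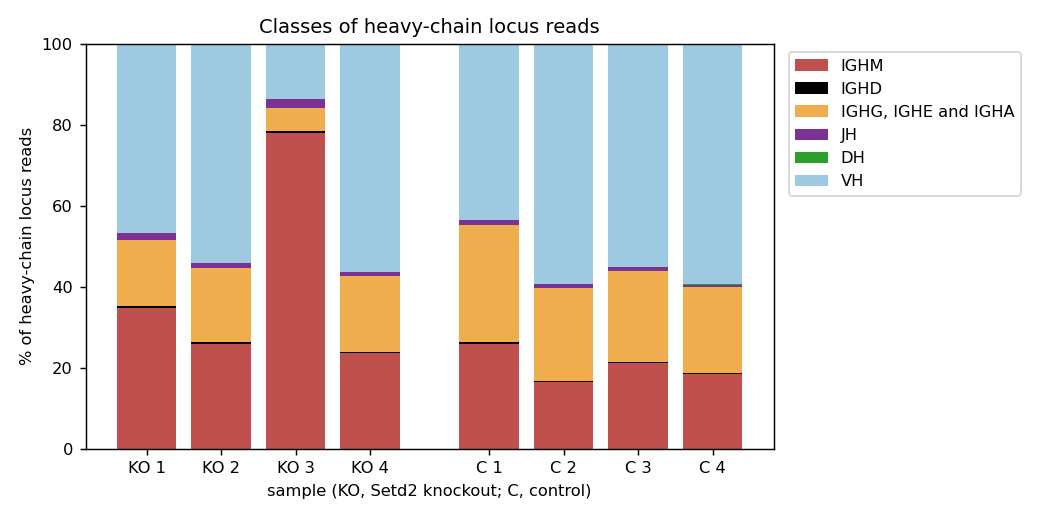
Share of heavy-chain locus reads held by each class of segment, 1 stacked bar per sample, in percent. In knockout 3 IGHM holds 78.1% and VH segments 13.5%, and the switched constant regions are smaller in every knockout than in every control.

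Reads of the constant region were related to V segments first. IGHM had 0.745, 0.480, 5.77 and 0.421 reads per VH read in knockouts 1 to 4, against 0.597, 0.278, 0.383 and 0.311 in controls 1 to 4. Knockouts 1 and 3 lay above every control, while knockouts 2 and 4 lay below control 1. The geometric mean was 0.966 in knockouts and 0.375 in controls, a log2 difference of 1.37 that did not pass (exact permutation p = 0.114). The fold of 2.58 was 1.42 without knockout 3. The VH reads of 1 gene can weigh on this ratio: IGHV5-9-1 held 27.6% of the VH reads of knockout 4 and IGHV2-2 held 16.3% in knockout 1.

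JH segments gave a different picture. They are the segments that the constant region is spliced to, and germline transcripts, which have no V, can read through them. IGHM had 21.6, 20.3, 35.3 and 23.2 reads per JH read in knockouts 1 to 4, against 21.9, 20.02, 21.7 and 25.1 in controls 1 to 4. Of the 8 samples, 7 lay between 20.02 and 25.1, and knockout 3 alone lay higher. The geometric mean was 24.5 in knockouts and 22.1 in controls, a fold of 1.11 that did not pass (exact permutation p = 0.657). Without knockout 3 the fold was 0.981 and the direction turned. The difference between IGHM per VH read and IGHM per JH read was not tested as such.

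The JH reads were mostly IGHJ1, the first of the JH segments in transcription order. It held 58.8% to 76.9% of JH reads in knockouts and 53.9% to 57.9% in controls. Among 111 other segments with at least 10 reads on average, IGHJ1 had the profile most like that of IGHM over the 8 samples. The root mean square difference of the centred log2 levels was 0.16, against a median of 1.74 over all these segments. IGHJ4 came next with 0.34, followed by IGHD with 0.58. IGHM had 34.5, 34.6, 45.9 and 37.1 reads per IGHJ1 read in knockouts, against 37.9, 35.9, 39.2 and 46.6 in controls, so the highest knockout and the highest control were close. Relative to the other JH segments, IGHM had 57.8, 49.3, 152 and 62.4 reads per read in knockouts and 52.1, 45.2, 48.4 and 54.5 in controls. The segments of a sample share its locus total, and the likeness is a description of 8 libraries.

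**Figure D3:**
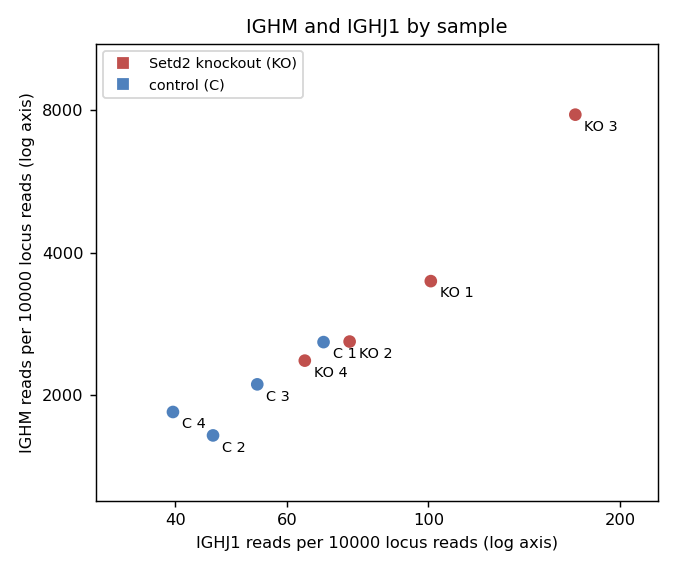
IGHM against IGHJ1, both as reads per 10000 heavy-chain locus reads on log axes, 1 point per sample. The points lie near a line, with knockout 3 at the upper end and controls 2 and 4 at the lower end.

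IGHM was higher relative to the switched constant regions in every knockout. It had 2.12, 1.42, 13.9 and 1.25 reads per switched constant-region read in knockouts 1 to 4, against 0.890, 0.718, 0.941 and 0.877 in controls 1 to 4. The groups did not overlap, and IGHM outnumbered the switched reads in 4 of 4 knockouts and in 0 of 4 controls. The log2 difference was 1.66 with an SD of 1.61 in knockouts and 0.17 in controls (exact permutation p = 0.0286, adjusted p = 0.100 by Benjamini-Hochberg over the 14 readouts). The fold of geometric means was 3.16, or 1.83 without knockout 3, where the groups still did not overlap. Among the 146 segments tested, 3 were higher without overlap per switched read, or 2.05%, and they were IGHM, IGHJ1 and IGHJ4, while 16 VH segments, or 11%, were lower. The share of switched reads itself was 16.4%, 18.3%, 5.64% and 18.9% in knockouts and 29.1%, 22.95%, 22.4% and 21.05% in controls, a mean difference of -9.07 percentage points (exact permutation p = 0.0286, adjusted p = 0.100). The difference lost its pass without knockout 3, at -6.02 (exact permutation p = 0.0571), and also without control 1 or 2. A lower share was not particular to switched regions. Per locus read 45 of 146 segments, or 30.8%, were lower in knockouts without overlap, and 0 were higher, or 0%. They were 41 VH segments and 4 switched constant regions. IGHM per switched read did not pass without any 1 of the controls (exact permutation p = 0.0857).

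The separation differed between the switched classes. Per IGHG read, which sums the IgG constant regions, IGHM had 7.09, 3.90, 34.9 and 5.50 reads in knockouts and 1.32, 1.70, 1.998 and 2.23 in controls, without overlap. Per IGHA read it had 3.03, 2.23, 23.05 and 1.62 reads in knockouts and 2.74, 1.24, 1.78 and 1.45 in controls, with overlap. These ratios were chosen after their values were seen and were not tested. Relative to the kappa constant region, IGHM had 0.610, 0.417, 3.36 and 0.380 reads per IGKC read in knockouts and 0.465, 0.260, 0.335 and 0.262 in controls. The fold of 2.35 did not pass (exact permutation p = 0.0857) and was 1.43 without knockout 3. The part of later B-lineage cells in the IGHM ratios was not tested.

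**Figure D4:**
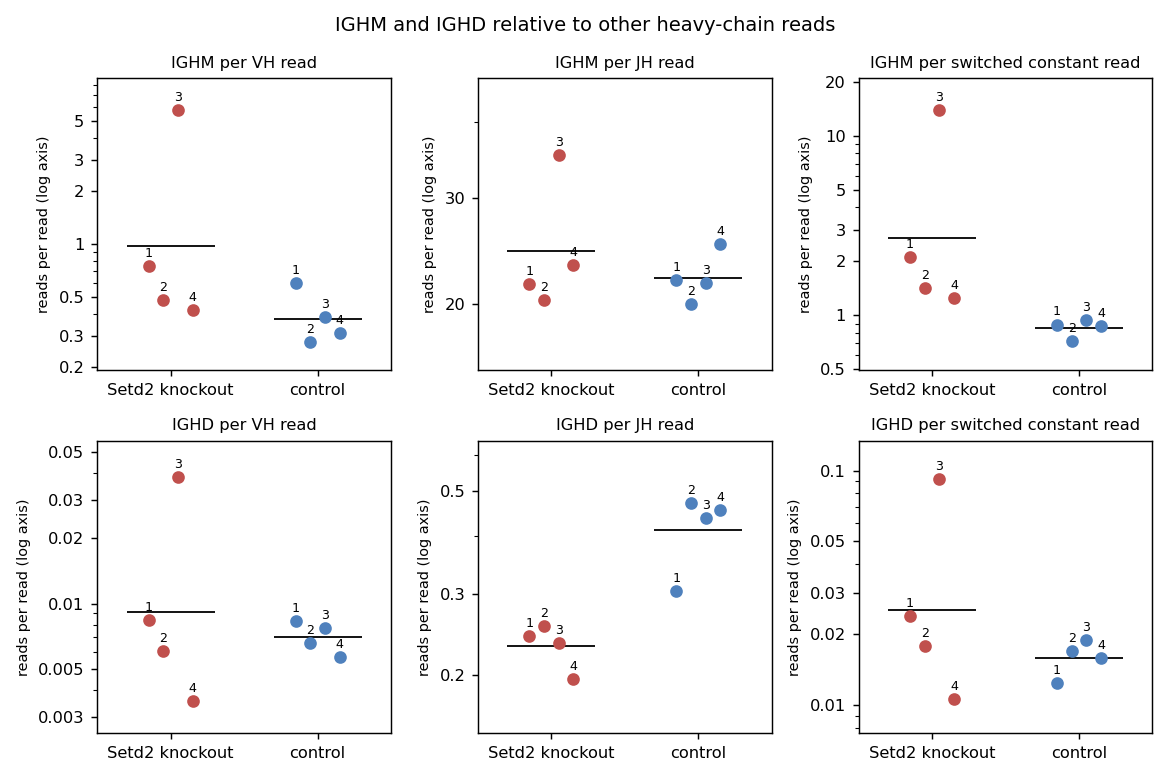
IGHM (top row) and IGHD (bottom row) reads per VH read, per JH read and per switched constant-region read on log axes, with 1 numbered point per sample and the geometric mean of each group as a line. IGHM per switched read and IGHD per JH read separate the groups, and knockout 3 stands high in 5 of the 6 panels.

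IGHD had a different pattern from IGHM against the same classes. It had 0.243, 0.255, 0.235 and 0.196 reads per JH read in knockouts 1 to 4, against 0.305, 0.473, 0.438 and 0.455 in controls 1 to 4. All knockouts lay below all controls, with control 1 the nearest, and knockout 3 lay among the other knockouts. The intervals of knockouts 1 to 3 overlapped that of control 1, which ran from 0.269 to 0.345. The log2 difference was -0.83 with an SD of 0.17 in knockouts and 0.29 in controls, so that knockouts had 0.562 times the control ratio. The exact permutation p was 0.0286 and 0.100 after adjustment over the readouts. Without knockout 3 the fold was 0.559, and without any 1 of the knockouts the difference did not pass (exact permutation p = 0.0571). Without IGHJ1 in the JH reads the ratio was 0.650, 0.619, 1.02 and 0.526 in knockouts and 0.725, 1.07, 0.979 and 0.988 in controls. The log2 difference was then -0.45 and did not pass (exact permutation p = 0.114). Being lower per JH read was not particular to IGHD, since 61 of 146 segments, or 41.8%, were lower in knockouts without overlap on that scale, and 1, IGHJ1, was higher, or 0.685%.

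Against the other classes IGHD overlapped between the groups. Per VH read it had 0.00838, 0.00604, 0.0385 and 0.00355 reads in knockouts and 0.00830, 0.00656, 0.00775 and 0.00564 in controls (exact permutation p = 0.771). The fold of 1.31 was 0.808 without knockout 3, where the direction turned. Per switched constant-region read it had 0.0239, 0.0178, 0.0924 and 0.0106 reads in knockouts and 0.0124, 0.01695, 0.0190 and 0.0159 in controls (exact permutation p = 0.457). That fold of 1.60 was 1.04 without knockout 3.

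The balance of the unswitched constant regions was compared directly, because both are spliced from the same precursor and neither a VH nor a JH count enters their ratio. IGHM had 88.9 reads per IGHD read in knockout 1 (interval 77.7 to 101.7), 79.6 in knockout 2 (67.2 to 94.3), 149.98 in knockout 3 (117 to 192) and 119 in knockout 4 (103 to 136). It had 71.9 in control 1 (64.4 to 80.2), 42.3 in control 2 (38.1 to 47.1), 49.5 in control 3 (43.9 to 55.8) and 55.1 in control 4 (48.7 to 62.4). All knockouts lay above all controls, and the intervals of knockouts 1 and 2 overlapped that of control 1. The few IGHD reads, 63 to 214 per knockout and 255 to 348 per control, set the width of these intervals.

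The mean was 109 ± 31.8 in knockouts and 54.7 ± 12.6 in controls (SD, n = 4 each). The log2 difference was 0.98, with an SD of 0.41 in knockouts and 0.32 in controls, or 1.97-fold. The exact permutation p was 0.0286 and 0.100 after adjustment. Without knockout 3 the fold was 1.76, and the groups still did not overlap. Without knockout 3 or 4 or control 2 or 3 the difference did not pass (exact permutation p = 0.0571). Read the other way, IGHD was lower per IGHM read in every knockout, 1 of 61 such segments among 145 tested, or 42.1%. The other 60 were 55 VH segments, IGHJ2, IGHE, IGHG1, IGHG2B and IGHG2C, and 0 segments were higher without overlap, or 0%. Of the 14 readouts 4 passed at an unadjusted p under 0.05, and 0 passed after adjustment. The 4 share IGHM, IGHD or switched reads with one another, so they are not independent results. The log2 difference of IGHM per IGHD read, 0.98, is that of IGHM per JH read, 0.15, less that of IGHD per JH read, -0.83.

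**Figure D5:**
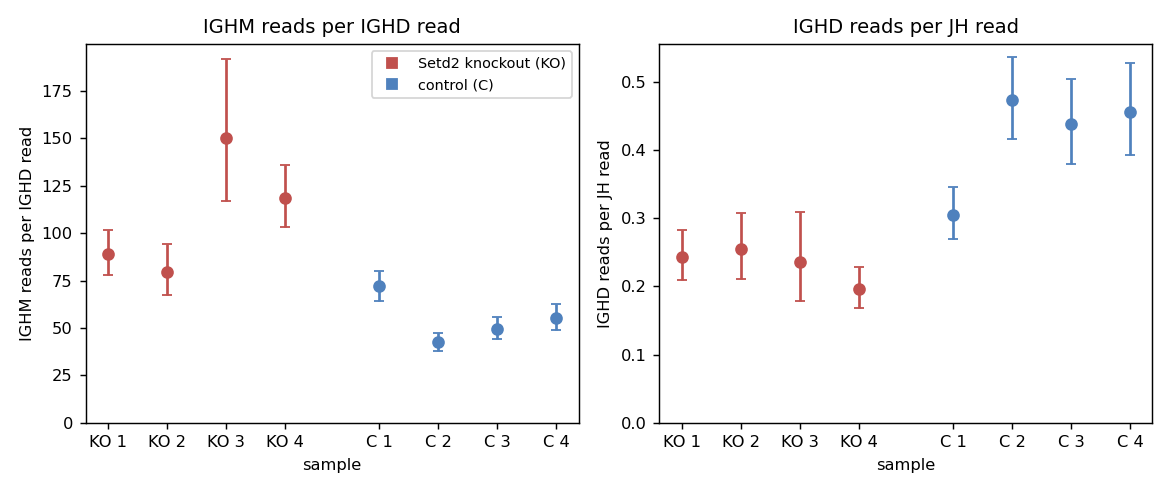
IGHM reads per IGHD read (left) and IGHD reads per JH read (right), 1 point per sample, with intervals from 95% Wilson limits of the read shares. The knockouts lie at 79.6 to 149.98 and the controls at 42.3 to 71.9 IGHM reads per IGHD read.

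The same counts were fitted over all 146 segments with edgeR's quasi-likelihood test. With locus reads as library size, 26 segments were lower in knockouts, or 17.8%, and 0 were higher, or 0%, with Benjamini-Hochberg adjustment. All 26 were VH segments, and IGHM and IGHD were not among them. The count was 0 without knockout 3, knockout 4, control 2 or control 3, 2 without control 4, 7 without control 1 and 40 without knockout 2. Before adjustment 51 had a p under 0.05 and were lower, or 34.9%, and 1 was higher, or 0.685%. IGHM had a log2 fold change of 0.99 with an approximate SE of 0.49 (adjusted p = 0.164 by edgeR), which was 0.46 without knockout 3. IGHD had -0.08 with an approximate SE of 0.61 (adjusted p = 0.931 by edgeR), beside a median of -1.17 over all segments. With TMM scaling, which moved the median of all segments to 0.038, the log2 fold changes were 2.52 for IGHM and 1.34 for IGHD, and 0 segments passed. DESeq2, with a median of 0.16, called IGHM higher, at 2.66 (adjusted p = 0.00465 by DESeq2). Of the 146 segments fitted, DESeq2 called 7 higher and 4 lower. The DESeq2 fit was not repeated without knockout 3. Relative to the median of its scaling IGHM was higher in all 3 fits, and IGHD was also above the median in each. The IGHD fold change had a negative sign with locus reads and a positive sign with TMM and DESeq2.

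The 6 other constant regions had a median log2 fold change of -1.43. After adjustment 0 of them passed in either direction, and before it 3 had a p under 0.05, all lower in knockouts. IGHG1, IGHG2B and IGHG2C, which encode IgG heavy chains, had -1.96, -1.44 and -1.42 (adjusted p = 0.0959, 0.0918 and 0.131 by edgeR). IGHA had -0.20 (adjusted p = 0.822 by edgeR) and IGHE, with 1 to 25 reads per sample, had -1.85 (adjusted p = 0.147 by edgeR). IGHG3 had 1.87 (adjusted p = 0.241 by edgeR), which was -0.76 without knockout 1, where 481 of its reads lay. With JH reads as library size, a scaling chosen after seeing the data, edgeR called 45 segments lower, or 30.8%, and 0 higher. IGHM then had 0.18 and IGHD -0.85 (adjusted p = 0.717 and 0.262 by edgeR), with a median of -1.74 over all segments.

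The profiles most like that of IGHD, by the same measure, were those of IGHJ4 with 0.43, IGHJ3 with 0.44 and IGHV1-41 with 0.48, against a median of 1.34. IGHM had rank 5 with 0.58. IGHV1-41 had 7 to 13 reads per knockout and 16 to 31 per control, so its profile is imprecise.

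Assembled contigs were examined last, since they show which V, D and J sequence a constant region was joined to. Of 1288 contigs in knockouts, 3 listed IGHM, 0 IGHD, 4 IGHG and 223 IGHA, and 1058 listed no constant region. Of 5878 contigs in controls, 2 listed IGHM, 0 IGHD, 49 IGHG and 852 IGHA, and 4975 listed none. The contigs were therefore also searched, on both strands, for the last 8 bases of a JH segment followed by the first 6 bases of a constant region, a search chosen after seeing the data. It found IGHM in 6 contigs, IGHD in 0, IGHG in 15 and IGHA in 316 in knockouts. It found IGHM in 18 contigs, IGHD in 1, IGHG in 141 and IGHA in 1211 in controls. IGHM was the most read segment in every sample and IGHA the most frequent constant region of the contigs by both measures, so contigs and segment reads weigh the classes differently.

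The IGHM junctions per sample were 2, 2, 0 and 2 in knockouts 1 to 4 and 7, 1, 9 and 1 in controls 1 to 4. In 6 of 6 knockout contigs and in 9 of 18 control contigs the bases after JH matched IGHM up to the end of the contig, over 6 to 26 bases. In the other 9 control contigs, 8 of control 3 and 1 of control 1, the match ended after 12 bases and other sequence followed. The contigs below show such junctions, with the bases that match the constant region in capitals and all other sequence in lower case. The knockout 1 contig joins a VH segment of family 9 to IGHJ1 and IGHM. The knockout 4 contig joins IGHJ3 to IGHM. The control 1 contig joins a VH segment of family 2 to IGHJ3 and IGHM. The control 3 contig, with a VH segment of family 2 and IGHJ4, leaves the IGHM sequence after 12 bases. The control 2 contig holds the 1 IGHD junction, with a VH segment of family 5 and IGHJ3, and leaves the IGHD sequence after 13 bases.
knockout 1: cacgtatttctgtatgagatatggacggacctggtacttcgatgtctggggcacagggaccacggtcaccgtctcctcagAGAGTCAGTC
knockout 4: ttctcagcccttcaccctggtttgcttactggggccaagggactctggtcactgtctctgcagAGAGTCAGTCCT
control 1: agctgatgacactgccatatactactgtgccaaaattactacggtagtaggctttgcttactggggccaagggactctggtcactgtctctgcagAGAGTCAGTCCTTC
control 3: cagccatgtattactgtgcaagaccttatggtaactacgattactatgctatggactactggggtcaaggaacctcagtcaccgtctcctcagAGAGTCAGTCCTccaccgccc
control 2: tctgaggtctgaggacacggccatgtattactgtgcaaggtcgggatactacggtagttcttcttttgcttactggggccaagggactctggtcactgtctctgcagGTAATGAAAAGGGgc

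The 3 knockout contigs that listed IGHM, of knockouts 1, 3 and 4, all carried IGHJ1 and held no such junction on either strand. Each did hold bases from the start of the first IGHM exon. In knockouts 1 and 3 these bases stood before IGHJ1 and in the opposite orientation to it. The control 1 contig with the 26-base match also held IGHJ1 sequence in the opposite orientation before its junction. With 6 and 18 IGHM junctions over the groups, no difference between the groups was tested.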

How the data were processed

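Read counts per heavy-chain and light-chain gene segment, and read counts per assembled heavy-chain contig, are whole numbers without normalization, as deposited by the authors. Reads were aligned with STAR 2.5.1 to mm10, per the submitters' processing notes, and the repertoire was reconstructed with TRUST, which the series design text names. How reads in introns or on close paralogs were counted is not stated.

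The rows named IGHM and IGHD were related to VH, JH, switched constant-region (IGHG, IGHE, IGHA) and kappa constant-region (IGKC) reads of the same sample. The 14 readouts were compared by two-sided exact permutation tests over 70 arrangements, whose smallest p is 0.0286, and called at p under 0.05. All segments with at least 10 counts over the 8 samples were fitted in R 4.3.3 with edgeR 4.0.16 (quasi-likelihood test), with locus reads as library size, no further scaling, and Benjamini-Hochberg adjusted p under 0.05. The script was tested on simulated data. The approximate SE of an edgeR log2 fold change is its absolute value over the square root of its F statistic. DESeq2 1.42.0 was an alternative. Python 3.11.15, scipy 1.17.1 and matplotlib 3.10.9 were also used. Intervals are 95% Wilson intervals and cover counting error only, since reads carried no molecular identifiers. Members, lists, tests and named segments (the other constant regions and the 3 segments of most similar profile) were chosen with earlier results of these data known.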

Additional observations from a re-analysis of the deposited data

How the results depend on the processing

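With 1 sample left out the smallest exact permutation p is 0.0286. IGHM per switched read, IGHM per IGHD read and IGHD per JH read each lost their pass in 4 of 8 omissions and the switched share in 3, while the IGHM and JH shares gained one without knockout 4. For the 4 readouts that passed with all samples the groups do not overlap, and no omission can change that. Their p rose where another arrangement of the unequal groups gave as large a difference of means. With the replicate number as a block, 4 pairs allow no p under 0.125. With 1 sample left out the log2 differences ran from 0.87 to 2.02 for IGHM per switched read, from 0.81 to 1.12 for IGHM per IGHD read and from -0.98 to -0.75 for IGHD per JH read, and the switched share difference from -10.4 to -6.02 percentage points. With the replicate block these were 1.66, 0.98, -0.83 and -9.07, each at p = 0.125 by the exact sign-flip test. The mean of the paired differences equals the difference of group means, and groups without overlap always give that smallest p. The block is therefore no further check on these readouts. Without the most read JH gene of each sample the IGHD per JH difference was -0.45 and the IGHM per JH difference 0.53. Leaving 1 sample out turned the direction of the IGHD share (0.0352 without knockout 4, lowest -0.0717). The same held for IGHD per VH read (-0.31 without knockout 3, highest 0.84) and IGHM per JH read (-0.028 without knockout 3, highest 0.24). The IGHM share difference ran from 7.67 to 25.8 and the JH share difference from 0.375 to 0.773 percentage points.

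The 26 segments called by edgeR became 0 to 40 with 1 sample left out, 30 with the replicate block, 0 with TMM or VH reads as library size, 11 with DESeq2, 9 with every segment of at least 1 count and 45 with JH reads. The log2 fold change of IGHM ran from 0.46 (without knockout 3) to 1.18. That of IGHD turned to 1.34, 1.46 and 0.96 with TMM, DESeq2 and VH reads, and with 1 sample left out ran from -0.30 to 0.13 (without knockout 4). That of IGHA turned to 1.11, 1.22 and 0.16, and ran from -0.42 to 0.088 (without knockout 3), and that of IGHG3 from -0.76 (without knockout 1) to 2.25. Listed contigs with IGHM or IGHD numbered 5, against 25 by junction. The cause was not tested. Same-numbered samples deviated together with r of 0.116, 0.0918, -0.0105 and 0.101 over segments, and samples of other numbers with r of -0.159 to 0.0895. Knockouts 1, 2 and 4 correlated best with the control of their number, and knockout 3 with control 1. These values are small and do not settle whether the numbers pair the samples. The labels do not say what a number shares, so the main tests took the samples as unpaired. No gene had several intervals, so that alternative gave no value. IGHD counts of 63 to 348 limit its ratios.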
